A study of Homo sapiens with 8 samples.

Results

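The genes described here are 36 genes of the pathway that the sterol regulatory element-binding proteins (SREBPs) control. They were chosen by name, from what is known of the pathway and not by a cutoff on measured values. Earlier results of these data were known when the list was made. The list holds 5 enzymes of the mevalonate steps, 3 of the isoprenoid steps, 3 of the squalene steps and 8 of the steps from lanosterol to cholesterol. It also holds 5 regulators of the SREBPs, 4 genes of sterol transport and uptake control and 8 genes of fatty acid synthesis. On the arrays 35 of the 36 were measured, out of 18239 genes in all. FDFT1, the squalene synthase gene, was not analysed here because no probe set names it alone. Each gene is represented by 1 probe set, a group of short probes against its transcript, namely the one with the highest mean over the 8 arrays. All 35 passed the filter on low values, a log2 value above 4.41 on at least 2 arrays. ABCA1 passed only through arrays with doxycycline, so its higher estimate was favoured by the filter. HSD17B7 exceeded that level only on arrays without doxycycline, which favoured its lower estimate.

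The study used 2 brain-metastatic derivatives of human breast cancer cell lines, labelled 231BrM and SKBrM3, and dealt with the loss of MET, a receptor tyrosine kinase. Both lines, controls included, carry a short hairpin RNA against MET that doxycycline switches on. Each line was grown in DMEM with serum, without doxycycline or with 100 ng of it (no volume is stated) for 48 h. Every one of the 4 groups (231BrM, 231BrM with doxycycline, SKBrM3, SKBrM3 with doxycycline) has 2 biotin-labelled Affymetrix arrays. No group received the drug without the hairpin, so the effects of doxycycline and of the hairpin cannot be told apart. Whether replicates were separate cultures is not stated, so the p-values rest on array-to-array spread that could be wholly technical.

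Cells make cholesterol from acetyl-CoA through mevalonate, farnesyl diphosphate, squalene and lanosterol, and they make fatty acids from the same acetyl-CoA. The SREBPs are transcription factors held in the endoplasmic reticulum membrane by SCAP and INSIG proteins while sterols are plentiful. When sterols run low, SCAP escorts the SREBPs to the Golgi, where proteases release the active part, which enters the nucleus and switches on these genes. SREBP-2, from SREBF2, mainly serves cholesterol genes, and SREBP-1, from SREBF1, mainly serves fatty acid genes.

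Promoter sequences were taken from RefSeq (GRCh38.p14), as the 250 bases before each annotated gene start, and 31 of the 36 genes had at least 1 such window, giving 44 windows. SQLE, ACAT2, ABCG1, FASN and FDFT1 had none in the table. The windows below, written 5′ to 3′ along the gene's strand, belong to genes whose signal changed with doxycycline in the arrays labelled SKBrM3 and that have a single window, and to SREBF2. They were chosen after the values were seen. Capitals mark the CCAAT box (CCAAT, or ATTGG on the other strand) and, in SREBF2, the match to the sterol regulatory element core.
INSIG1, chr7:155297628-155297877, plus strand: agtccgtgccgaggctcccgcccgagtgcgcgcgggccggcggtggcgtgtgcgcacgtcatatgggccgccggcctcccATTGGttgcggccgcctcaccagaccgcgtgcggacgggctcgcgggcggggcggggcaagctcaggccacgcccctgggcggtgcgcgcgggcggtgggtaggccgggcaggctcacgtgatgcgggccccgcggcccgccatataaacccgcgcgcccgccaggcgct
MSMO1, chr4:165327419-165327668, plus strand: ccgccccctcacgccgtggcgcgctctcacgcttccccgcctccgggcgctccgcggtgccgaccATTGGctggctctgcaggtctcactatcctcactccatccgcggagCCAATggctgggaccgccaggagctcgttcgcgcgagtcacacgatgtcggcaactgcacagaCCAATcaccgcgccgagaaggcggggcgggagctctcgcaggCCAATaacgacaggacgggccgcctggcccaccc
STARD4, chr5:111512536-111512785, minus strand: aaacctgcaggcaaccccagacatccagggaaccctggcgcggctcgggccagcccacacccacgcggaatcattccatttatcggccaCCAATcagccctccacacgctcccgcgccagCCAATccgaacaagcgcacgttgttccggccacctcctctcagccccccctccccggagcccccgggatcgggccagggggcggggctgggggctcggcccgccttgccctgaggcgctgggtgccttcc
CYP51A1, chr7:92134478-92134727, minus strand: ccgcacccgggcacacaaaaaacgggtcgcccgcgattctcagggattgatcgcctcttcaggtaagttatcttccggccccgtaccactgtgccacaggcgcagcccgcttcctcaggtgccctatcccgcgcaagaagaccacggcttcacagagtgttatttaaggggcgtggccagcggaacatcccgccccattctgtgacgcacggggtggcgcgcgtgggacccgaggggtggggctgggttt
PMVK, chr1:154936720-154936969, minus strand: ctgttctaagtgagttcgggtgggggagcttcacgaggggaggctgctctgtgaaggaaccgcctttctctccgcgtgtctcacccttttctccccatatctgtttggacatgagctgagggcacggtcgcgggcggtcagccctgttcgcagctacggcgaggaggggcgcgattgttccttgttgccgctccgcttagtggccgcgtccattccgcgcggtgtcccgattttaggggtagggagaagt
SREBF2, chr22:41832855-41833104, plus strand: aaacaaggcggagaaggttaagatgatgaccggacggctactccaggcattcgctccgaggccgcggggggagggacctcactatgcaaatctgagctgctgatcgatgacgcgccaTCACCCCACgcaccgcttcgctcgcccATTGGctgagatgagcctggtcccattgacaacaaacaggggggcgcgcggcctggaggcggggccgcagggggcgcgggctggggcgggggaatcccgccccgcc
The core searched for, TCACNCCAC or GTGGNGTGA on the other strand, was in 1 of the 44 windows (2.27%), that of SREBF2, against 0.883% of 35116 windows of all genes. None of the 11 windows of the genes called lower in SKBrM3 held it, which says only that these letters are not in these 250 bases. CCAAT, the usual letters of an NF-Y site, was in 26 of the 44 windows (59.1%), against 32% of all windows. MSMO1 had 4 copies, STARD4 had 2, INSIG1 and SREBF2 had 1 each, and CYP51A1 and PMVK had none. GGGCGG or its complement CCGCCC, the letters of an Sp1 site, was in 39 windows (88.6%), against 42.6% of all windows. The windows of all genes come from 27305 genes, more than the 18239 measured on the arrays. Shares among measured genes alone were not computed. Windows of different starts of 1 gene can overlap, so these shares are descriptions, as are all matches.

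The hairpin's target was checked first. MET read 9.45 and 9.26 on the 231BrM arrays without doxycycline and 5.85 and 5.35 with it. On the arrays labelled SKBrM3 it read 9.25 and 9.20 without and 5.76 and 5.71 with doxycycline. The fall was 13.5-fold in 231BrM (adjusted p = 2.8e-05) and 11.3-fold in SKBrM3 (adjusted p = 1.3e-05; limma), or -3.76 and -3.50 on the log2 scale. Other MET probe sets that passed the filter gave smaller falls, with log2 changes of -2.75 to -1.08 in 231BrM and -2.82 to -1.67 in SKBrM3. The line labels were checked on marker genes. ERBB2, a receptor gene known to be amplified in SK-BR-3 cells, read 6.81 on average in 231BrM and 6.71 in the arrays labelled SKBrM3. The mean of 12 epithelial and ERBB2-region markers was at least 6.98 on the 231BrM arrays without doxycycline and 6.75 on both untreated arrays labelled SKBrM3, so the latter do not show more of these markers as a set. FOXA1, a luminal transcription factor gene of the list, was higher in SKBrM3 (6.39 against 5.02), and KRT19, an epithelial keratin gene, was lower (6.82 against 9.41). KRT8, KRT18, SPDEF and GATA3 of the list were called lower in SKBrM3 as well. Of the ERBB2 neighbours in that list, MIEN1 was higher in SKBrM3 (8.92 against 8.19) and PGAP3 as well (6.36 against 6.05), and GRB7 was not (5.16 against 5.10; adjusted p = 0.78). The mean of 8 mesenchymal markers known from MDA-MB-231 cells was at least 10.29 on the untreated 231BrM arrays and at most 9.93 on the untreated arrays labelled SKBrM3. SPARC, a matrix protein gene, made most of that gap (6.95 against 4.21). CAV1 was also called higher in 231BrM (11.27 against 10.72, limma adjusted p = 0.0011), while VIM, CD44, AXL, ZEB1, MSN and TGFBI were not called between the lines. The identity of the arrays labelled SKBrM3 thus needs checking, and every direction between the lines rests on that label. The arrays of the 2 labels did differ, with correlations of 0.957 to 0.964 between lines against 0.992 to 0.998 within groups. Of 10 markers of fibroblasts, endothelial cells, leukocytes and astrocytes, 6 were below the filter on all 8 arrays. Replicate 1 of 231BrM with doxycycline stood apart in its 3′ minus 5′ signal for actin, a sign of RNA quality. This log2 difference was 1.24, against 0.46 to 0.59 on the other arrays. Between this array and its replicate 68 genes differed over 2-fold, 66 of them lower on replicate 1, against 0 or 1 gene in the other pairs.

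In the arrays labelled SKBrM3, 8 of the 35 genes fell with doxycycline, all of them on the sterol side of the pathway, and 1 rose. Those that fell were HMGCS1, IDI1, SQLE, CYP51A1, MSMO1 and SC5D, which are enzymes of cholesterol synthesis, INSIG1, which retains the SREBPs, and STARD4, which carries cholesterol between membranes. PMVK, phosphomevalonate kinase, rose. The falls lay between 2.06-fold for HMGCS1 and 1.38-fold for SC5D. Over all 13002 genes tested 2.28% were called lower and 1.15% higher in this line, 3.43% in all. The median change of the 35 genes was -0.13 on the log2 scale, against 0.01 over all genes tested. As the list was made with earlier results known, these comparisons with all genes are descriptions. None of the 8 fatty acid synthesis genes was called in either direction, though SCD was called lower in several alternative fits, given below. Called means an adjusted p under 0.05 in limma, and each group has 2 arrays. Since the RNA is from bulk cultures, fewer cells with a transcript and less of it per cell cannot be told apart.

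**Figure D1:**
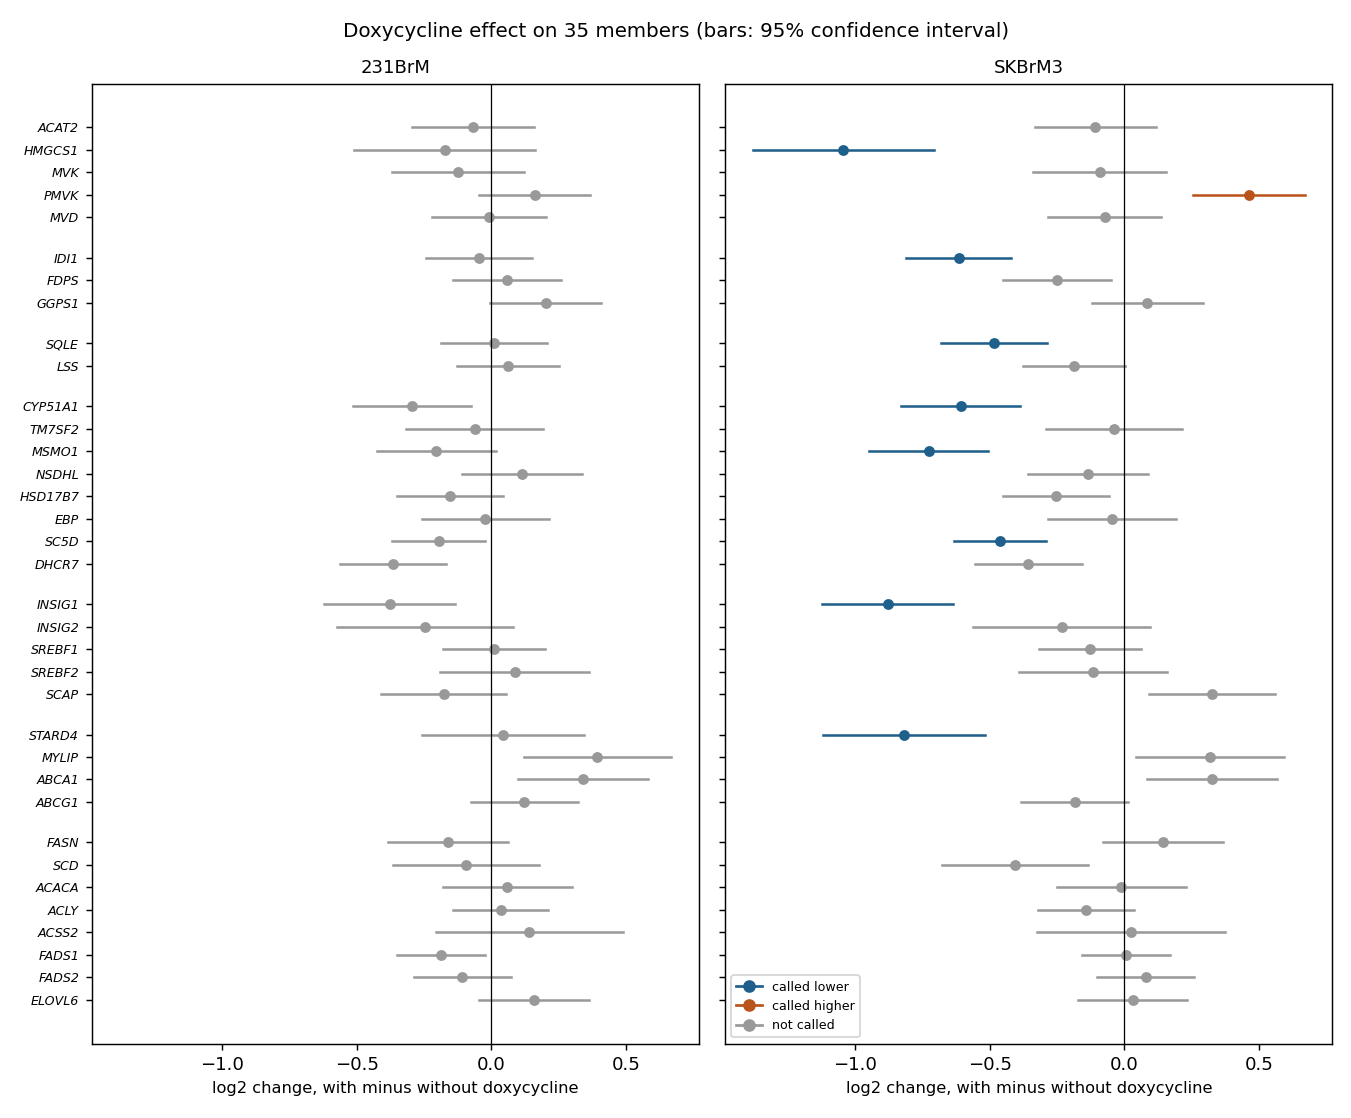
Log2 change with doxycycline for each of the 35 genes in 231BrM (left) and in the arrays labelled SKBrM3 (right). Points are limma estimates from 2 arrays against 2, bars are 95% confidence intervals, gaps separate the roles, and colour marks the call. In SKBrM3 8 genes lie left of 0 as called lower and PMVK right of it, while in 231BrM every point is grey.

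Among the mevalonate steps, HMGCS1, the synthase that makes HMG-CoA, read 7.85 and 7.70 without and 6.63 and 6.83 with doxycycline on the arrays labelled SKBrM3. Both treated arrays lay below both control arrays, and the change was -1.05 (SE 0.148, adjusted p = 0.0095). The treated arrays overlapped the untreated 231BrM arrays, where HMGCS1 read 6.45 and 6.68. PMVK, which adds the second phosphate to mevalonate, went the other way, from 6.79 and 6.73 to 7.12 and 7.32, a rise of 0.46 (SE 0.0909, adjusted p = 0.031). ACAT2, MVK and MVD, the thiolase, the first kinase and the decarboxylase of these steps, changed by -0.11, -0.09 and -0.07, and none was called.

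Of the isoprenoid steps, IDI1, the isomerase that makes the second isoprene unit, read 9.68 and 9.73 without and 9.05 and 9.12 with doxycycline in SKBrM3. The groups did not overlap, and the fall was -0.62 (SE 0.0862, adjusted p = 0.0089). FDPS, which joins isoprene units into farnesyl diphosphate, had a change of -0.25 (adjusted p = 0.16), and GGPS1, which makes the longer geranylgeranyl diphosphate, one of 0.08 (adjusted p = 0.64). Of the squalene steps, SQLE, the epoxidase that is a slow step of the pathway, read 7.77 and 7.71, then 7.25 and 7.26. Its treated arrays were nearly equal and lay below both controls, with a change of -0.48 (SE 0.0864, adjusted p = 0.024). LSS, which closes the rings to lanosterol, had a change of -0.19 (adjusted p = 0.25).

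From lanosterol to cholesterol, 3 of 8 genes were called lower in SKBrM3, and all 8 estimates were negative, from -0.73 to -0.04. MSMO1, the sterol C4 methyl oxidase, read 9.19 and 9.08 without and 8.38 and 8.43 with doxycycline, a change of -0.73 (SE 0.0967, adjusted p = 0.0069). CYP51A1, the lanosterol demethylase that opens this stretch, read 9.78 and 9.70, then 9.04 and 9.22, a change of -0.61 (SE 0.0970, adjusted p = 0.015). SC5D, a sterol desaturase near its end, read 8.95 and 8.85, then 8.43 and 8.44, a change of -0.46 (SE 0.0755, adjusted p = 0.017). For all 3, neither treated array reached the lower control. DHCR7, the reductase of the last step in one branch, went from 8.44 and 8.41 to 8.06 and 8.08, a change of -0.36 that missed the threshold (adjusted p = 0.066). HSD17B7, NSDHL, EBP and TM7SF2, which act between these enzymes, had changes of -0.25, -0.13, -0.05 and -0.04. The HSD17B7 values, 4.05 to 4.50 over all arrays, lie near the filter and passed it only without doxycycline, so its negative estimate is no support for the others.

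Of the SREBP regulators, INSIG1 read 8.66 and 8.57 without and 7.70 and 7.77 with doxycycline in SKBrM3. The fall of 1.84-fold (log2 change -0.88, SE 0.107, adjusted p = 0.0046) took it below both untreated 231BrM arrays, at 8.31 and 8.32. INSIG1 is itself an SREBP target, and its protein holds SCAP and the SREBPs back in the endoplasmic reticulum. INSIG2, its relative, had a change of -0.23 (adjusted p = 0.40), while its other probe sets gave -0.44 and -0.46. The SREBP genes SREBF1 and SREBF2 had changes of -0.13 (adjusted p = 0.42) and -0.12 (adjusted p = 0.63). SCAP read 7.91 and 7.96, then 8.26 and 8.26, a positive difference of 0.33 that was not called (adjusted p = 0.13).

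Of the genes of sterol transport and uptake control, STARD4 read 6.75 and 6.45 without and 5.66 and 5.90 with doxycycline in SKBrM3, a change of -0.82 (SE 0.133, adjusted p = 0.017). The 231BrM arrays without doxycycline, at 5.55 and 5.76, overlapped the treated SKBrM3 arrays. MYLIP is a ubiquitin ligase that removes lipoprotein receptors, and ABCA1 exports cholesterol. In SKBrM3 MYLIP read 6.69 on both control arrays and 7.01 and 7.02 with doxycycline, and ABCA1 read 4.02 and 4.08, then 4.25 and 4.49. These differences of 0.32 each were not called (adjusted p = 0.19 and 0.14), and the filter favoured that of ABCA1. The probe sets of MYLIP differed in sign, from -0.13 to 0.38 in SKBrM3 and from -0.04 to 0.75 in 231BrM. ABCG1, a further exporter, had a change of -0.18 (adjusted p = 0.28).

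**Figure D2:**
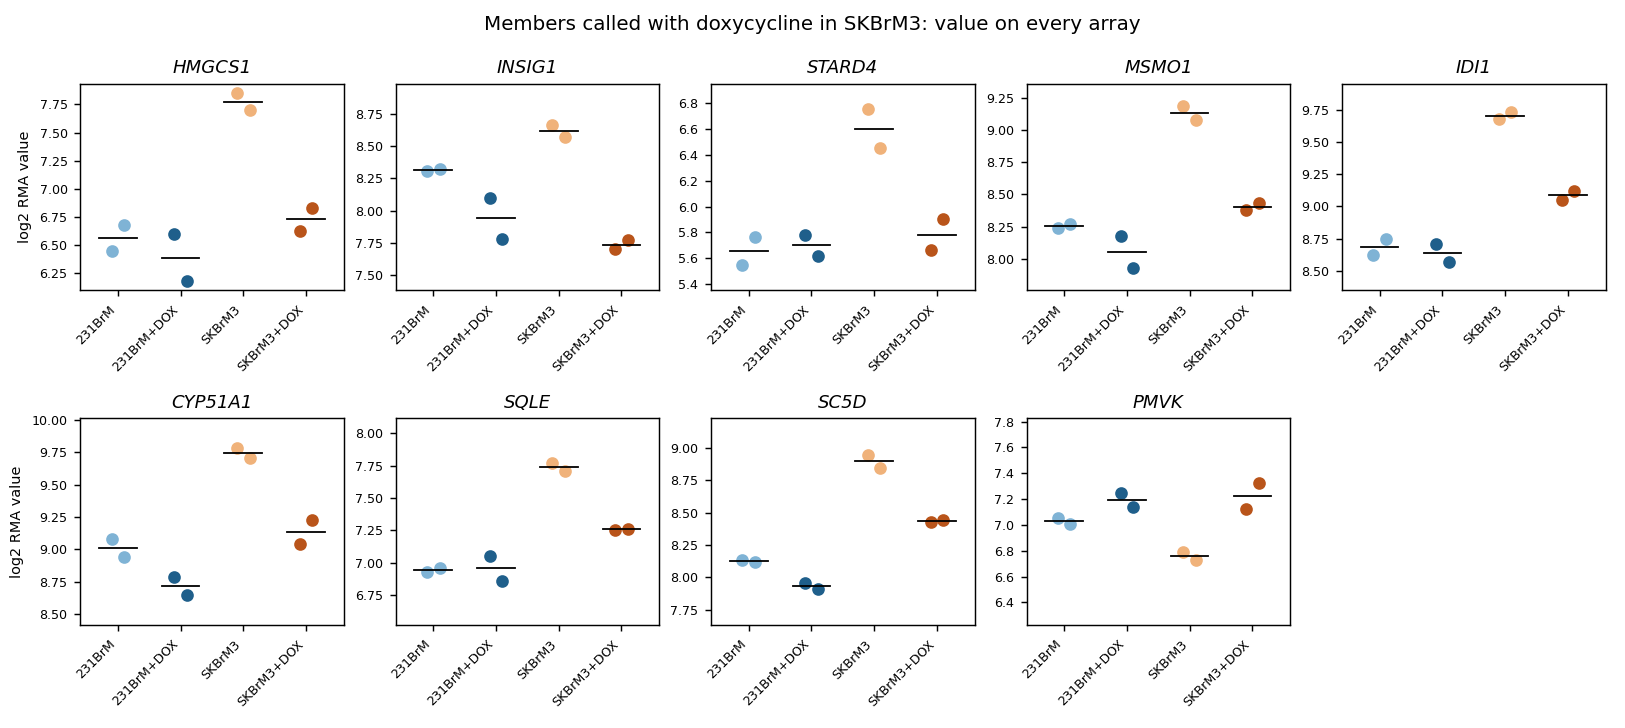
Log2 value on every array for the 9 genes called with doxycycline in the arrays labelled SKBrM3, with the mean of each group as a bar. The vertical axes differ between panels and do not start at 0. For 8 genes both treated SKBrM3 arrays lie below both controls, and for PMVK above them.

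None of the fatty acid synthesis genes was called with doxycycline in SKBrM3, and the median of the 8 was 0.01. SCD, the desaturase that makes oleic acid, came nearest: it read 10.14 and 10.27 without and 9.77 and 9.83 with the drug, a change of -0.41 (adjusted p = 0.11). The probe set mattered for SCD, since its 3 other probe sets gave changes between -0.96 and -0.70. With the mean of all its probe sets SCD was called lower, at -0.73 (adjusted p = 0.0022), while SC5D lost its call (log2 change, doxycycline in SKBrM3, -0.41, adjusted p = 0.13). SCD was called lower as well with centred arrays, with quantile normalization of the genes tested, with array weights, with the 4 arrays of the line alone and without either or both 231BrM arrays with doxycycline. ACLY, which makes cytosolic acetyl-CoA from citrate, and ACACA, the acetyl-CoA carboxylase, had changes of -0.14 and -0.01. FASN, the fatty acid synthase, had one of 0.14, and ACSS2, FADS1, FADS2 and ELOVL6 (an acetyl-CoA synthetase, a pair of polyunsaturated fatty acid desaturases and an elongase) ranged from 0.00 to 0.08.

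**Figure D3:**
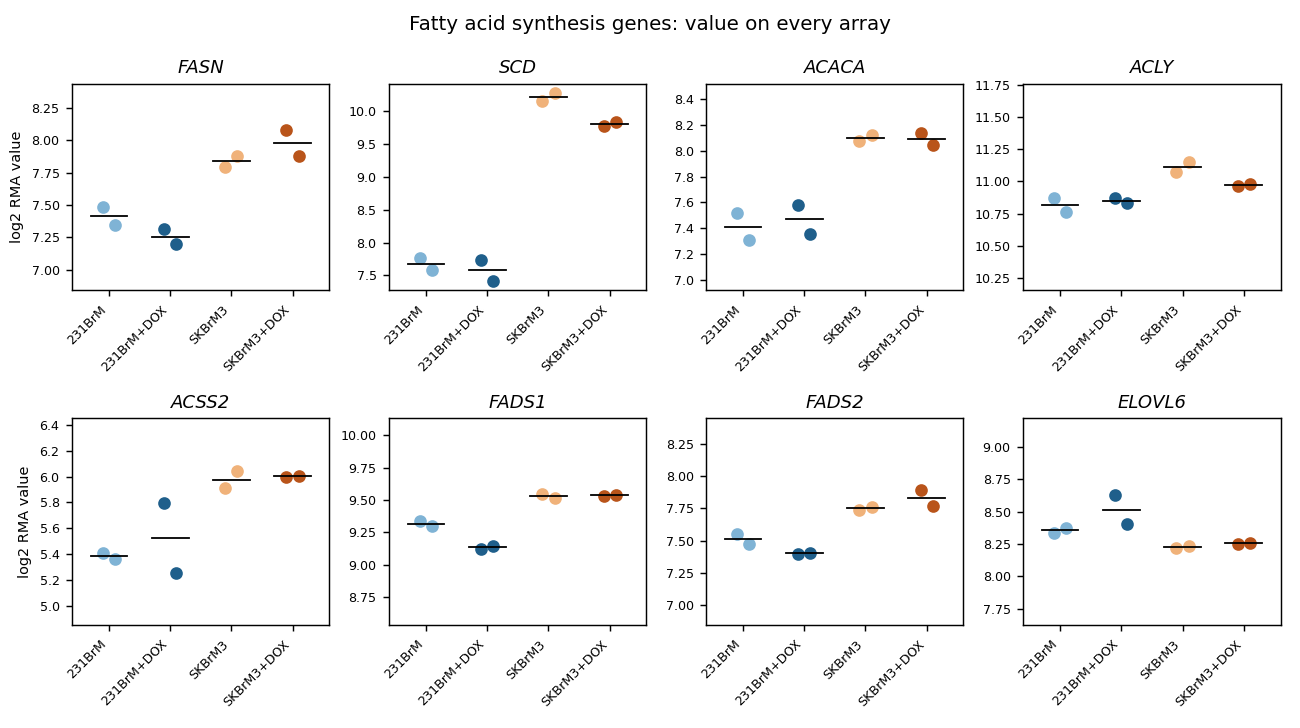
Log2 value on every array for the 8 fatty acid synthesis genes, with the mean of each group as a bar. The vertical axes differ between panels and do not start at 0. SCD separates the lines most, with 7.42 to 7.76 on the 231BrM arrays and 9.77 to 10.27 on the arrays labelled SKBrM3.

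The calls in SKBrM3 rest on few arrays. Without either SKBrM3 control array, or without replicate 1 of the treated arrays, 0 of the 35 genes was called, and without replicate 2 of the treated arrays HMGCS1 and INSIG1 alone were called lower. Those fits have a lone array in 1 group and take its spread from the other groups. Fewer of the 35 genes were called without either untreated 231BrM array as well. In none of these fits was the loss of calls set beside that over all genes tested. Without replicate 1 or 2 of 231BrM with doxycycline, or without both, 10 were called lower, with DHCR7 and SCD added, and 3 higher (PMVK, MYLIP and ABCA1), among 798 lower and 833 higher over all genes tested. Among these, ABCA1 had passed the filter only through arrays with doxycycline. All 9 called genes kept their sign in SKBrM3 under each alternative run. Of all 35 genes, 19 had both treated arrays below both controls in SKBrM3 and 7 had them above, where 27.2% and 32.3% of all genes tested did. The 19 include HSD17B7 and the 7 include ABCA1, each favoured in that direction by the filter.

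Most genes with more than 1 usable probe set gave the same sign in SKBrM3 with each of them, 18 of 27. The probe sets of HMGCS1 gave -1.10 and -1.05, those of INSIG1 -0.88 to -0.71, those of MSMO1 -0.87 to -0.73 and those of STARD4 -0.87 to -0.62. For PMVK they gave 0.23 to 0.53. SQLE was the exception among the called genes, with 3 probe sets between -0.56 and -0.46 and 1 at 0.09.

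**Figure D4:**
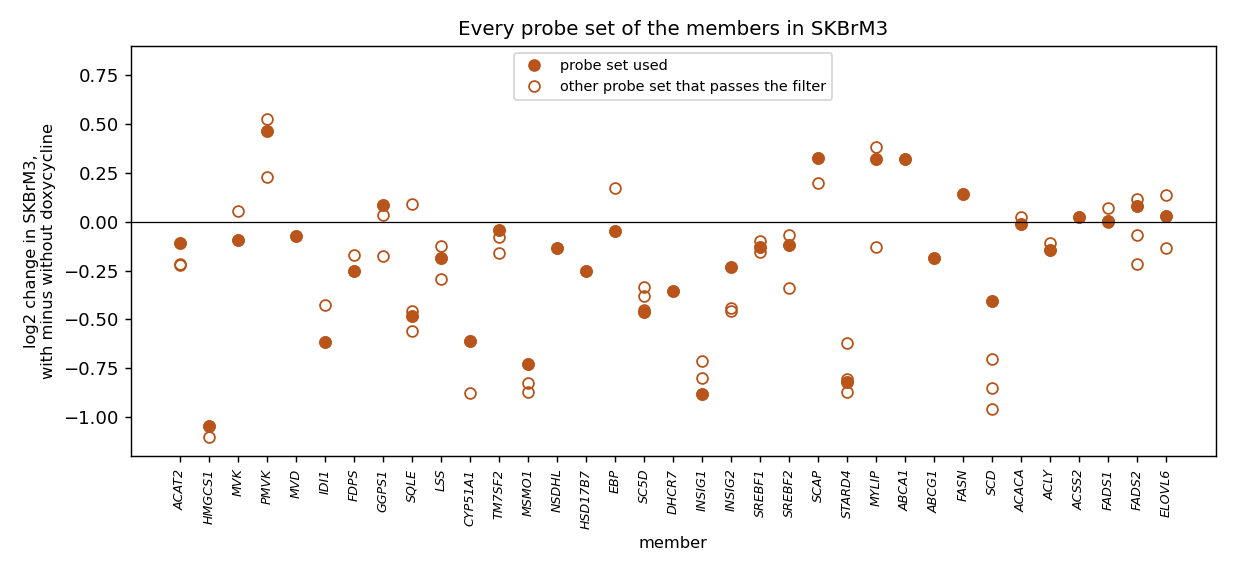
Log2 change with doxycycline in the arrays labelled SKBrM3 for all 85 probe sets of the 35 genes that pass the filter. Filled circles are the probe sets used and open circles the others. Those of HMGCS1, CYP51A1, MSMO1, INSIG1 and STARD4 all lie below -0.60, and the open circles of SCD lie below its filled one.

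In 231BrM none of the 35 genes was called with doxycycline, where 0.162% of all genes tested were called lower and none higher. At an unadjusted p under 0.05, 5 were lower (CYP51A1, SC5D, DHCR7, INSIG1 and FADS1) and 2 higher (MYLIP and ABCA1), where 3.74% of all genes tested were lower and 6.15% higher at that threshold. ABCA1 passed the filter only through arrays with doxycycline, so its higher value is no support for a rise. The median change was -0.02, against 0.05 over all genes. It was -0.11 without replicate 1 of the treated arrays and 0.04 without replicate 2, so its sign depends on 1 array. INSIG1 read 8.31 and 8.32 without and 8.10 and 7.78 with doxycycline, a change of -0.38 (SE 0.107, adjusted p = 0.35). DHCR7 read 7.55 and 7.64, then 7.14 and 7.32, a change of -0.36 (SE 0.0866, adjusted p = 0.25). In both genes the treated arrays lay below the controls. CYP51A1 read 9.08 and 8.94, then 8.78 and 8.64 (adjusted p = 0.41), and SC5D read 8.13 and 8.12, then 7.95 and 7.91 (adjusted p = 0.48). MSMO1, at 8.24 and 8.27, then 8.17 and 7.93, gave a change of -0.20 (adjusted p = 0.52).

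The genes with the greatest falls in SKBrM3 were not uniformly lower here. HMGCS1 in 231BrM read 6.45 and 6.68 without and 6.60 and 6.18 with doxycycline, so the groups overlapped. STARD4 overlapped as well, at 5.55 and 5.76, then 5.78 and 5.62, as did IDI1, at 8.62 and 8.75, then 8.71 and 8.57, and SQLE, at 6.92 and 6.96, then 7.05 and 6.86. The usable probe sets of STARD4 gave -0.45 to 0.04 in 231BrM, and only the one used was positive. For PMVK the treated arrays, 7.24 and 7.14, lay above the controls, 7.05 and 7.01 (adjusted p = 0.57). MYLIP, at 6.30 and 6.41, then 6.95 and 6.56, and ABCA1, at 4.09 and 3.99, then 4.28 and 4.48, had changes of 0.39 and 0.34 (adjusted p = 0.39 and 0.40). In all, 10 of the 35 genes had both treated arrays below both controls and 6 above, where 12.1% and 25.8% of all genes tested did. HSD17B7 is among the 10 and ABCA1 among the 6, each favoured in that direction by the filter.

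The treated replicates in 231BrM differed, with the 35 genes higher by 0.15 on average on replicate 1 and all genes tested by 0.10. This is the array with the high 3′ minus 5′ difference for actin, whose part in these values was not tested. Without it INSIG1 was called lower, among 78 genes lower and 2 higher over all genes tested. Without replicate 2 DHCR7 was called lower and MYLIP and ACSS2 higher, among 482 lower and 1168 higher.

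The difference between the lines' responses was tested directly, as the SKBrM3 effect minus the 231BrM effect. None of the 35 genes passed, where 0.0231% of all genes tested were called lower and none higher. At an unadjusted p under 0.05, 10 were lower and 2 higher, where 6.86% and 4.31% of all genes tested were. HMGCS1 gave -0.87 (SE 0.209, adjusted p = 0.25), STARD4 -0.86 (SE 0.188, adjusted p = 0.21) and IDI1 -0.57 (SE 0.122, adjusted p = 0.21). The 95% confidence intervals, unadjusted, were -1.35 to -0.40, -1.29 to -0.44 and -0.85 to -0.29. The size of the STARD4 difference depends on the probe set, since its other usable probe sets fell in 231BrM, by -0.45 to -0.15. For DHCR7 the difference was 0.01, with an interval of -0.27 to 0.29. Without replicate 2 of 231BrM with doxycycline, HMGCS1, IDI1, SQLE, MSMO1, INSIG1 and STARD4 were called lower in this contrast, among 278 genes over all tested. The calls of 1 line and not the other are therefore not shown to differ over all 8 arrays.

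Averaged over both lines, 7 of the 35 genes fell and PMVK rose, where 2.07% and 0.969% of all genes tested were called lower and higher, 3.04% in all. With quantile normalization repeated on the genes tested, 9 fell and 3 rose. INSIG1 had the largest change, -0.63 (SE 0.0757, adjusted p = 0.0041), followed by HMGCS1 at -0.61 (adjusted p = 0.020), MSMO1 at -0.47 (adjusted p = 0.010) and CYP51A1 at -0.45 (adjusted p = 0.012). DHCR7 fell by 0.36 (adjusted p = 0.019), with estimates of -0.36 in each line, and SC5D and IDI1 each fell by 0.33 (adjusted p = 0.016 and 0.028). The averages of IDI1 and HMGCS1 came mostly from SKBrM3, since their 231BrM arrays overlapped, with changes of -0.04 and -0.17. In 231BrM INSIG1, CYP51A1, MSMO1 and SC5D changed by -0.38, -0.29, -0.20 and -0.20. PMVK rose by 0.31 (adjusted p = 0.042), a call kept in 8 of 17 alternatives, and another of its probe sets gave -0.10 in 231BrM. SQLE and STARD4, called in SKBrM3 alone, missed here (adjusted p = 0.084 and 0.067). ABCA1 and MYLIP, at 0.33 and 0.36, missed as well (adjusted p = 0.056 and 0.065), and the filter favoured the ABCA1 estimate. INSIG1 kept its call in 17 of 17 alternatives and was the only one of the 35 called without any single untreated array or without replicate 1 of SKBrM3 with doxycycline. Without replicate 2 of the latter group CYP51A1, MSMO1 and INSIG1 were called.

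Without doxycycline the lines differed widely, and 18 of the 35 genes were lower in 231BrM than in the arrays labelled SKBrM3, while 2 were higher. Over all genes tested 19.9% were called lower and 19.8% higher, 39.7% in all. Both arrays of 231BrM lay below both of SKBrM3 for 22 of the 35 genes and above for 6, where 43.6% and 33.2% of all genes tested did. The 18 were SCD, HMGCS1, IDI1, STARD4, MSMO1, DHCR7, SQLE, SC5D, CYP51A1, ACACA, SREBF2, ACSS2, FASN, TM7SF2, LSS, ACLY, FADS2 and FADS1. The median difference, 231BrM minus SKBrM3, was -0.30, against -0.05 over all genes. The 8 genes that fell in SKBrM3 with doxycycline share their untreated SKBrM3 arrays with this comparison, and 7 of them are among the 18. Both comparisons thus hold the same control values, and the overlap is no independent result.

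SCD differed most, at 7.76 and 7.58 in 231BrM and 10.14 and 10.27 in SKBrM3, which is 5.79-fold (log2 difference -2.53, SE 0.119, adjusted p = 1.8e-06). In the fatty acid group 7 of 8 genes were lower in 231BrM, the exception being ELOVL6. ACACA read 7.52 and 7.31 in 231BrM and 8.08 and 8.12 in SKBrM3 (difference -0.69, adjusted p = 0.0010), and ACSS2 5.41 and 5.36 against 5.91 and 6.05 (difference -0.59, adjusted p = 0.014). FASN read 7.49 and 7.35 against 7.80 and 7.88 (difference -0.42, adjusted p = 0.0089). These are enzymes of acetyl-CoA supply and of fatty acid chain building. ACLY, at 10.87 and 10.76 against 11.08 and 11.15, FADS2, at 7.55 and 7.47 against 7.74 and 7.76, and FADS1, at 9.34 and 9.30 against 9.54 and 9.52, differed by -0.30, -0.24 and -0.21 (adjusted p = 0.015, 0.041 and 0.043). FADS1 and FADS2 kept these calls in 2 of the 8 fits that leave out 1 array.

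On the sterol side HMGCS1 differed by -1.21 between lines (adjusted p = 0.00031), IDI1 by -1.02 (adjusted p = 4.4e-05), STARD4 by -0.95 (adjusted p = 0.00066) and MSMO1 by -0.88 (adjusted p = 0.00018). DHCR7, SQLE, SC5D and CYP51A1 followed, with differences from -0.83 to -0.73. TM7SF2, a sterol reductase, read 5.05 and 5.25 in 231BrM and 5.36 and 5.64 in SKBrM3 (difference -0.35, adjusted p = 0.034). LSS read 6.37 and 6.27 against 6.66 and 6.64 (difference -0.33, adjusted p = 0.014). Among the regulators SREBF2 was the one called, at 6.71 on both 231BrM arrays against 7.32 and 7.33 (difference -0.61, adjusted p = 0.0040), while SREBF1 gave -0.08 (adjusted p = 0.47). GGPS1 was the gene of this set that was clearly higher in 231BrM, at 7.71 on both arrays against 6.08 and 6.17 (difference 1.58, adjusted p = 5.4e-06), though its 2 other probe sets gave smaller differences, the lowest 0.17. PMVK was higher in 231BrM by 0.27 (adjusted p = 0.043). All 27 genes with several probe sets gave this line difference 1 sign.

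**Figure D5:**
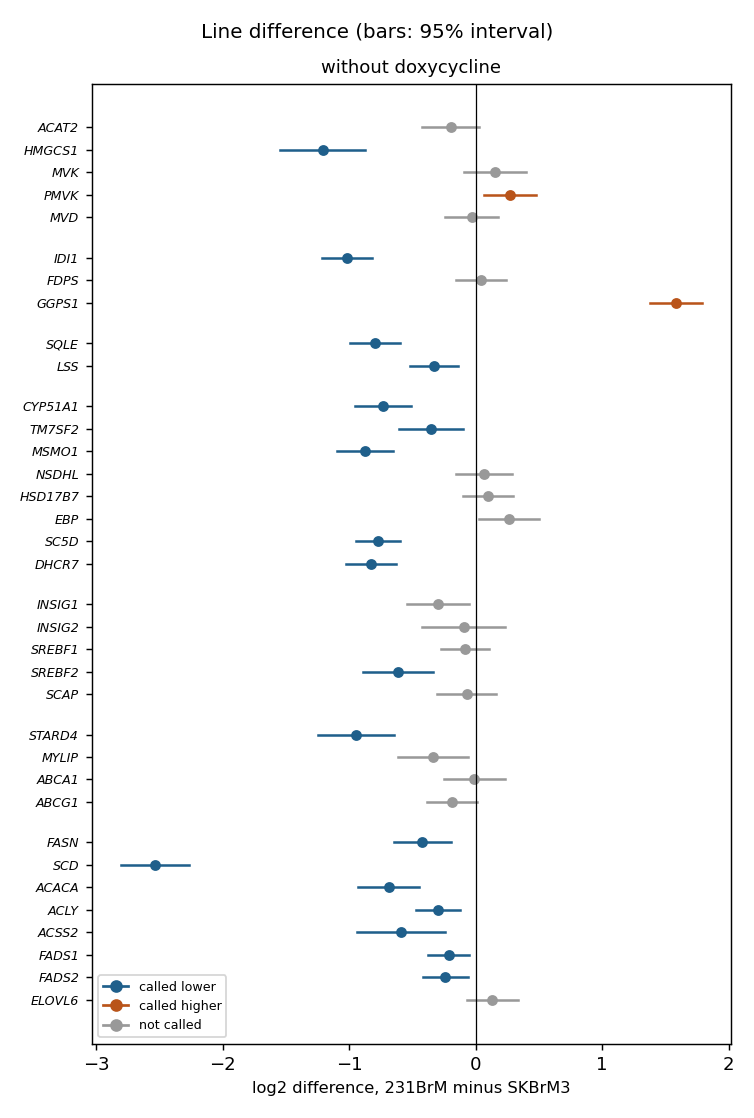
Log2 difference between the lines without doxycycline, 231BrM minus SKBrM3, for each of the 35 genes. Points are limma estimates from 2 arrays against 2, bars are 95% confidence intervals, and gaps separate the roles. SCD, at -2.53, and GGPS1, at 1.58, lie farthest from 0 on either side.

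Between the lines 11 genes were called lower and 1 higher without replicate 2 of SKBrM3, and 12 and 1 without replicate 2 of 231BrM. PMVK, FADS1 and FADS2 lost their calls without any single untreated array.

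The treated SKBrM3 arrays were also set beside the untreated 231BrM arrays, as a description with no test. HMGCS1, STARD4 and CYP51A1 on the treated SKBrM3 arrays overlapped the untreated 231BrM arrays. IDI1, SQLE, MSMO1, SC5D and DHCR7 stayed above both of them, and INSIG1 lay below. FDPS, NSDHL, HSD17B7, MVK and EBP, none of them called, lay below both untreated 231BrM arrays as well. Of the 35 genes, 20 were above and 8 below on both treated SKBrM3 arrays, where 42.7% and 34.5% of all genes tested were. The filter favoured this for ABCA1 among the 20 and for HSD17B7 among the 8.

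Genes that work beside these enzymes were described from 3 further lists. For comparison, 2.28% of all genes tested were called lower and 1.15% higher with doxycycline in SKBrM3. Of 13 tested genes of other sterol handling steps 1 fell with doxycycline in SKBrM3: RDH11, a retinol dehydrogenase known as an SREBP target, read 10.51 and 10.48 without and 9.80 and 9.92 with the drug (change -0.64, SE 0.0822, adjusted p = 0.0061). In 231BrM it read 10.15 and 10.12, then 9.81 and 9.69 (change -0.39, adjusted p = 0.19). Of 18 tested genes of fatty acid supply 1 fell in SKBrM3: ELOVL5, a fatty acid elongase, read 10.95 and 10.79, then 10.40 and 10.47 (change -0.43, SE 0.0812, adjusted p = 0.027). Of 9 genes of the isoprenoid branch, which make ubiquinone and dolichol and attach lipid anchors to proteins, 0 were called in SKBrM3, and 1 had an unadjusted p under 0.05, as 20.2% of all genes tested did. None of the 3 lists had a call in 231BrM, where 0.162% of all genes tested were called lower and none higher. In the average of both lines RDH11 (-0.51, adjusted p = 0.0030) and ELOVL5 (-0.32, adjusted p = 0.025) fell and SCD5, a second stearoyl-CoA desaturase, rose by 0.43 (adjusted p = 0.048). There 2.07% of all genes tested were called lower and 0.969% higher. In 231BrM SCD5 read 7.24 and 7.19 without and 7.85 and 7.44 with doxycycline. On the arrays labelled SKBrM3 it read 6.75 and 6.59, then 7.04 and 7.18. Between the untreated lines, 6 of the 13 were lower and 1 higher in 231BrM. For the isoprenoid branch 1 of 9 was lower and 4 were higher, and for fatty acid supply 7 of 18 were lower and 4 higher. Of all genes tested, 19.9% were called lower and 19.8% higher in 231BrM between the untreated lines.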

How the data were processed

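The values are log2 signals, 1 per probe set and array, that the authors deposited after RMA, a method that corrects background, quantile-normalizes and summarizes probe sets, per the submitters' processing notes. The sources used here name no software version, chip definition or genome build. Quantile normalization gives all arrays nearly the same distribution (medians 4.92 to 4.97), so a change in total RNA per cell cannot be seen. The table holds 49386 probe sets, of which 45253 name 1 gene in the platform annotation, 1327 several and 2713 none, and 93 are controls. Symbols of 45172 were updated by gene ID through RefSeq.

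Where a gene had several probe sets, that of highest mean stood for it (18239 genes). A total of 13002 genes with a value above 4.41, the 40th percentile, on at least 2 arrays were tested, and 5237 were set aside. Log2 values were fitted with limma 3.58.1 (R 4.3.3; lmFit, eBayes) as 4 group means over 8 arrays (residual degrees of freedom 4, prior 4.60). The 5 contrasts covered doxycycline in 231BrM and in SKBrM3, the average and the difference of both effects, and the untreated lines. Tests were two-sided, with Benjamini-Hochberg adjustment over the genes tested, and called means an adjusted p under 0.05. Precision is limited by the number of arrays, with a median standard error of 0.0968.

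The members and lists were chosen with earlier results of these data known. Named genes are MET, every member called in any contrast with its values, and genes of the further lists called with doxycycline. Members not called are given by their change, with array values for some, chosen after the values were seen. In data simulated for 13002 genes, changes of 1.0 were recovered for 94% (231BrM) and 91% (SKBrM3) of changed genes and changes of 0.5 for 48% and 50%, and 9 unchanged genes were called. The simulation gave all 4 groups the same spread for a gene. In the data the treated 231BrM replicates differed more (SD of the difference 0.255, against 0.124 to 0.138 in the other pairs). The simulated 231BrM rates may therefore not hold for the real arrays. Alternatives covered the probe set, the filter, the scaling, the replicate block, array weights, the variance trend, the arrays of 1 line alone and each array left out. The fit without both 231BrM arrays with doxycycline was chosen after seeing the data.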

Additional observations from a re-analysis of the deposited data

Results flagged for a closer look

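For 3 genes both treated arrays lay above both controls in one line and below both in the other. As the SKBrM3 effect minus the 231BrM effect on the log2 scale, ABCG1 gave -0.31, FASN gave 0.31 and FADS2 gave 0.19. This difference was tested with limma, and none passed (adjusted p = 0.41 for ABCG1, 0.46 for FASN and 0.57 for FADS2). ABCG1 read 4.83 and 4.88, then 5.05 and 4.91 in 231BrM, and 5.08 and 5.01, then 4.79 and 4.93 in SKBrM3. FASN read 7.49 and 7.35, then 7.31 and 7.20 in 231BrM, and 7.80 and 7.88, then 8.08 and 7.88 in SKBrM3. FADS2 read 7.55 and 7.47, then 7.40 and 7.40 in 231BrM, and 7.74 and 7.76, then 7.89 and 7.77 in SKBrM3. The nearest treated and control arrays in SKBrM3 were almost equal, at 7.882 against 7.878 for FASN and 7.765 against 7.759 for FADS2. The probe sets of FADS2 differed in sign in SKBrM3, from -0.22 to 0.11. The pattern held for 8.38% of all genes tested, so 3 of 35 is near that background.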

How the results depend on the processing

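Counts are of the 35 genes. In SKBrM3 with doxycycline 8 were called lower, 5 with the probe set of largest spread and 0 to 10 with 1 array left out. There 1 was called higher, against 0 with the probe set of largest spread and 0 to 3 with 1 array left out. It was 3 with array weights, 3 with the 4 arrays of the line alone and 3 without both 231BrM arrays with doxycycline. In 231BrM 0 to 1 was called lower and 0 to 2 higher with 1 array left out. In the average 7 were called lower, 3 with the largest spread and 1 to 10 with 1 array left out. There 1 was called higher, against 0 with the mean of all probe sets or the largest spread, 2 with centred arrays, array weights or the variance trend, 3 with quantile normalization and 0 to 5 with 1 array left out. For the difference of the effects 0 to 6 were called lower with 1 array left out. Between the lines 18 were called lower and 2 higher, against 11 to 21 and 1 to 3 with 1 array left out, and 1 higher with quantile normalization or the variance trend. Over all genes tested in SKBrM3, 296 lower and 150 higher became 509 and 158 with centred arrays, 806 and 799 with array weights and 621 and 627 with 4 arrays. They became 126 and 34 with the probe set of largest spread, 441 and 238 with quantile normalization, and 798 and 833 without the 231BrM arrays with doxycycline. In 231BrM, 21 lower became 45 with quantile normalization, 43 with centred arrays and 1 with 4 arrays. In the average, 269 lower and 126 higher became 450 and 164 with centred arrays, 397 and 206 with quantile normalization, and 33 higher and 132 lower with the largest spread. With 1 array left out the higher calls in the average ranged from 4 to 2014. None of these genes, where called, reversed its direction under an alternative. The cause was not tested.

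Replicate numbers are shared between groups, and correlations of same-numbered deviations ran from -0.11 to 0.24. The highest was that between 231BrM without and with doxycycline, so whether same-numbered arrays were paired is not settled. With the replicate block the counts in SKBrM3 were 8 lower and 1 higher, in the average 7 and 0, and between the lines 16 and 1, without FADS1, FADS2 and PMVK.

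With 2 arrays per group, changes near 0.5 on the log2 scale were often missed in simulated data. Low values, such as those of ABCA1 and HSD17B7, have no measured background.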
